A study of Mus musculus with 12 samples.

Results

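The 8 genes described here, Ldha, Slc16a1, Acot7, Arap2, Oat, Igfbp4, Cxcl12 and Pdgfra, belong to the disallowed genes of the pancreatic β cell, a group of widely expressed genes that normal adult β cells keep at a low level. They are 8 of the 15964 genes named on the arrays. They were taken as every probe set whose annotation gives exactly 1 of these symbols and no other, which made 17 probe sets of the 36701 that are not controls. Chip A holds 14 of the 17, chip B holds 3 and chip C holds 0. RNA came from MIN6 cells, a β-cell line derived from an insulinoma of a transgenic mouse. The 4 populations were high-passage parental cells (Pr-HP, passages 35 to 40), low-passage parental cells (Pr-LP, passages 17 to 20), low-passage clone 4 cells (C4-LP, passages 17 to 20) and high-passage clone 4 cells (C4-HP, passages 40 to 50). Both clone 4 populations come from 1 clone, made by limiting dilution when the parental culture was at low passage, and all populations grew in the same medium with 25 mM glucose. Pr-HP cells have lost glucose-stimulated insulin secretion (GSIS) and are called non-responders, and the other 3 populations keep it and are called responders. Each population had 1 array on each of the 3 chips, 12 arrays in all, so that there were no replicate arrays. Besides GSIS, Pr-HP differs from Pr-LP in passage, from C4-HP mainly in cloning, and from C4-LP in both. C4-HP, a responder, had at least as many passages as Pr-HP. With 1 non-responder population, these differences cannot be told apart from GSIS.

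A β cell measures glucose through its metabolism. Pyruvate made by glycolysis enters the mitochondria, ATP rises, ATP-sensitive potassium channels close, and the calcium that enters releases insulin. Lactate dehydrogenase A, the product of Ldha, would turn that pyruvate into lactate, and monocarboxylate transporter 1, the product of Slc16a1, would let circulating lactate and pyruvate into the cell and so release insulin without glucose. The other disallowed genes encode proteins of several kinds, among them mitochondrial and acyl-CoA enzymes, a regulator of small GTPases, and secreted or cell-surface signalling proteins. In a bulk array a change in the number of cells that express a gene and a change in RNA per cell cannot be told apart.

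The sequences just before the start of 4 of these genes are shown because their probe sets were the ones more than 2-fold higher in Pr-HP than in the responder mean. Each is the 250 bases before the start in RefSeq (GRCm38.p6), written 5′ to 3′ on the strand of the gene. Capitals mark matches on either strand to an E-box (CACGTG), the core bound by hypoxia-inducible factors (HIF, ACGTG), a GC box (GGGCGG), a cyclic-AMP response element (CRE, TGACGTCA) and a CCAAT box (CCAAT).
Ldha, chr7:46845554-46845803 (plus strand): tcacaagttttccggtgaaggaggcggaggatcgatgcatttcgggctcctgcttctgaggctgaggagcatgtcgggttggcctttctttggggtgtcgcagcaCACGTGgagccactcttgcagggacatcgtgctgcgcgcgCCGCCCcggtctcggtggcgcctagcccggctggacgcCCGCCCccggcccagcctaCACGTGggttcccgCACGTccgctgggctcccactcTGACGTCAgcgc
Oat, chr7:132576399-132576648 (minus strand): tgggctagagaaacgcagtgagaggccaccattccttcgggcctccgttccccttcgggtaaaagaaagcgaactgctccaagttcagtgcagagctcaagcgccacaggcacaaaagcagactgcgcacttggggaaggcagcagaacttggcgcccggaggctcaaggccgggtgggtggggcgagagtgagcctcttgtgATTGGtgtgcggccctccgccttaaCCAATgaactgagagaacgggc
Acot7, chr4:152185358-152185607 (plus strand): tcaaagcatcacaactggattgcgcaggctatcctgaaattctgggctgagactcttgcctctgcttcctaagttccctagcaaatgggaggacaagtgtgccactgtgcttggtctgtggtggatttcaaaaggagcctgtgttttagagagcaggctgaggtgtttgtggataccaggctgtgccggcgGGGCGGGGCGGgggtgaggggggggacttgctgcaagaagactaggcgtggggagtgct
Arap2, chr5:62766178-62766427 (minus strand): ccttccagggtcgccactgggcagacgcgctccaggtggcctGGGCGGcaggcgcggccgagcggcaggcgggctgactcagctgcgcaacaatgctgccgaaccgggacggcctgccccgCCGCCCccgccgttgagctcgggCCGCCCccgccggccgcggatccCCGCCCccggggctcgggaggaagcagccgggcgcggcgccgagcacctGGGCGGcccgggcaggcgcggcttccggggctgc
The Ldha sequence held 2 E-boxes, which begin 145 and 48 bases before the start and each contain the HIF core on both strands, 1 further HIF core 34 bases before the start, 2 GC boxes and 1 CRE. The Oat sequence held 2 CCAAT boxes and none of the other 4 motifs, the Acot7 sequence held 2 GC boxes that overlap by 1 base, and the Arap2 sequence held 5 GC boxes. No motif of the 5 was found in all 4 sequences. Of the 32851 promoters in the table, 6.02% held the E-box, 16.6% the HIF core, 32.7% the GC box, 1.55% the CRE and 33.8% the CCAAT box. The promoter of Slc16a1 also held 1 E-box, and a second Ldha start in the table had no match to any of the 5 motifs. All 8 genes had an entry. A match is a run of letters, and binding was not measured.

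The arrays of a chip were alike in their overall level, with medians of 214.2 to 216.0 units for A, 161.9 to 162.7 units for B and 92.5 to 92.9 units for C. Values under the 20th percentile of a chip (67.3 units for A, 58.6 for B and 29.1 for C, called the floor here) were raised to it before any ratio was taken. As the only repeat measurement, 13 probe sets for mouse Gapdh, Actb, Pcx and Tfrc lie on all 3 chips, and a ratio between 2 populations differed between chips by a median of 1.11-fold and at most 1.34-fold. It is not stated whether the 3 chips received the same RNA extract. Dividing the 3′ probe set of Gapdh by its 5′ probe set, a sign of RNA integrity, gave the lowest value to Pr-HP on every chip, at 0.867 in Pr-HP against 0.968 to 1.05 in the responders on chip A. The same ratio for Actb was lowest in Pr-HP on A and B but not on C, where it was 1.34 in Pr-HP against 1.30 to 1.42 in the responders. Their part in the results below was not tested. Of the 16 β-cell markers looked for, 10 had a probe set and none of these was under the floor in all 4 populations, and their summed intensity was 37224 units in Pr-HP, against 38961 in Pr-LP, 41131 in C4-LP and 38578 in C4-HP. In the probe sets of this sum, Pr-HP read below every responder for Iapp, Pdx1, Nkx2-2, Abcc8, Kcnj11 and Chga. It read above every responder for Ins2, Pcsk1 and G6pc2, while for Slc2a2 it lay among them. Ins2, an insulin gene, read 15526 units in Pr-HP (100150_f_at), against 14771 to 15461 in the responders. The authors caution that the insulin gene signals may lie beyond the linear range of the arrays. That limit holds for this reading and for the sum that includes it. Kcnj11, the pore of the ATP-sensitive potassium channel, read 644 units in Pr-HP (98787_at), against 816 to 1171 in the responders. Its other probe set (166807_at), which is not in the sum, read 483 units in Pr-HP, against 900 to 1074 in the responders. Pcsk1, a prohormone convertase, read 1379 units in Pr-HP, against 425 to 771 in the responders. Slc2a2, the glucose transporter GLUT2, read 499 units in Pr-HP, against 478 in Pr-LP, 464 in C4-LP and 1754 in C4-HP. Of the 14 tested probe sets of the β-cell markers limma called 0, with 1 at an unadjusted p under 0.05, and their median log2 difference was -0.22.

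Of the 17 probe sets, 12 were at or above the floor in at least 1 population, and 5 were under it in all 4. The filter for testing, at least 1 array above the 40th percentile of its chip (152.7 units on chip A, 121.6 on B and 66.5 on C), was passed by 11 probe sets of 7 genes. Of these, 1 (Arap2 114550_at) passed through Pr-HP alone. Slc16a1 had no tested probe set.

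**Figure D1:**
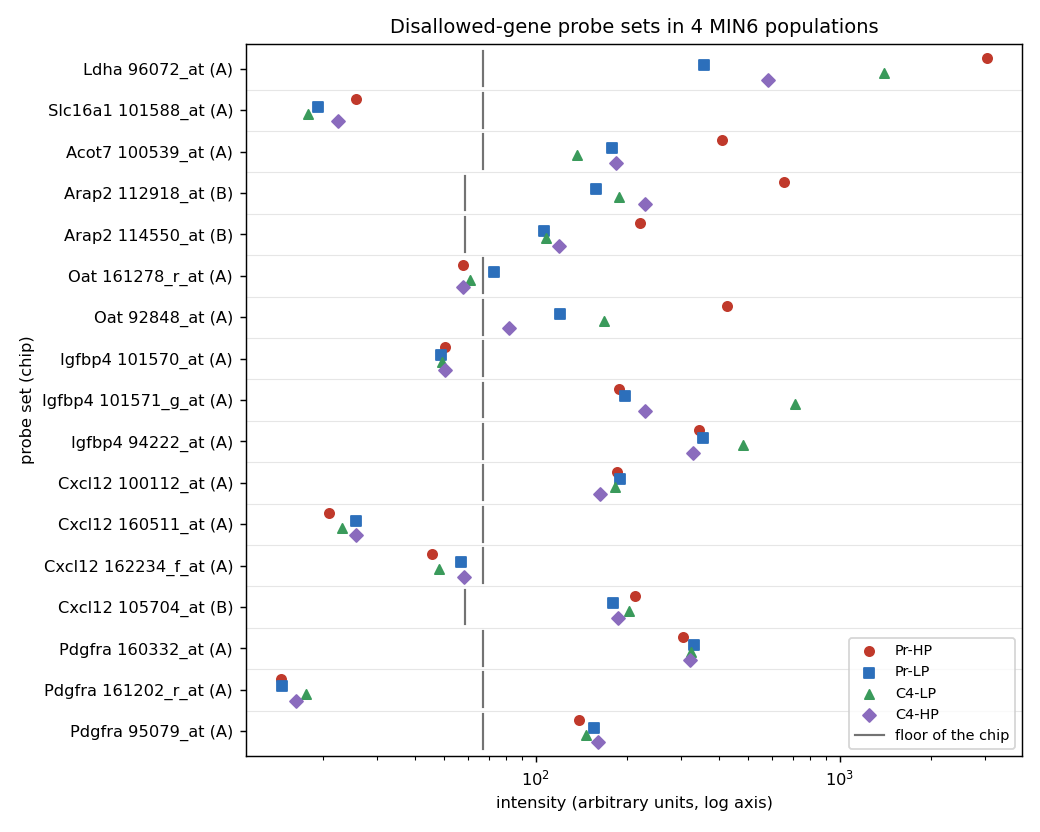
Intensity (arbitrary units, log axis) of the 17 probe sets in Pr-HP, Pr-LP, C4-LP and C4-HP, 1 array per point, with the floor of the chip (67.3 units on A, 58.6 on B) as a grey line. Pr-HP lies to the right of the other populations for Ldha, Acot7, both Arap2 probe sets and Oat 92848_at, C4-LP stands apart for Igfbp4 101571_g_at, and Slc16a1 lies left of the floor throughout.

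Ldha and Slc16a1 are the enzyme and the transporter of the lactate and pyruvate route. Ldha (96072_at) measured 3059 units in Pr-HP, against 358.3 in Pr-LP, 1397 in C4-LP and 580.3 in C4-HP. Pr-HP lay above every responder, and the responders themselves were far apart, with C4-LP 3.90-fold above Pr-LP. The responder mean was 778 ± 547 units (SD, n = 3 populations), and Pr-HP was 3.93-fold above it, 8.54-fold above Pr-LP, 2.19-fold above C4-LP and 5.27-fold above C4-HP. On the log2 scale the difference between Pr-HP and the responders was 2.21 ± 0.83 (SE), which did not pass the threshold (limma, adjusted p = 0.529). Without C4-LP the fold over the responder mean was 6.52. Slc16a1 (101588_at) read 25.6 units in Pr-HP, against 19.2 in Pr-LP, 17.9 in C4-LP and 22.4 in C4-HP, all under the floor of 67.3, so that no level and no fold can be given for the transporter in any of the populations.

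Oat encodes ornithine aminotransferase, a mitochondrial enzyme that links ornithine to glutamate and proline. Oat (92848_at) measured 427 units in Pr-HP, against 121 in Pr-LP, 167 in C4-LP and 81.6 in C4-HP. Pr-HP did not overlap the responders, and within them the order was C4-LP, Pr-LP and C4-HP. The responder mean was 123 ± 42.9 units (SD, n = 3), the fold of Pr-HP over it 3.47 and the log2 difference 1.85 ± 0.44 (SE; limma, unadjusted p = 0.0139, adjusted p = 0.369). The other Oat probe set (161278_r_at) did not show this. It read 57.5 units in Pr-HP, against 73.0 in Pr-LP, 60.9 in C4-LP and 57.7 in C4-HP, with Pr-LP alone above the floor, and it was not tested.

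Acot7 encodes an acyl-CoA thioesterase, which splits long-chain acyl-CoA into free fatty acid and coenzyme A. Its probe set (100539_at) measured 411 units in Pr-HP, against 178 in Pr-LP, 137 in C4-LP and 184 in C4-HP. The responders lay close together, at 167 ± 25.7 units (SD, n = 3), and Pr-HP was 2.47-fold above their mean and 2.23-fold above C4-HP, the highest of them. The log2 difference was 1.32 ± 0.22 (SE; limma, unadjusted p = 0.00394, adjusted p = 0.257).

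Arap2 encodes a GTPase-activating protein for the small GTPase ARF6, which binds phosphoinositides. Both of its probe sets are on chip B. The first (112918_at) measured 655 units in Pr-HP, against 158 in Pr-LP, 188 in C4-LP and 229 in C4-HP, and the second (114550_at) 220 units in Pr-HP, against 106 in Pr-LP, 108 in C4-LP and 119 in C4-HP. The order of the 4 populations was the same in both, Pr-HP, C4-HP, C4-LP and Pr-LP, and Pr-HP overlapped no responder. The responder mean was 192 ± 35.7 units for the first and 111 ± 6.85 for the second (SD, n = 3 each), and Pr-HP was 3.415-fold and 1.98-fold above it. The log2 difference was 1.79 ± 0.24 (SE; limma, unadjusted p = 0.00148, adjusted p = 0.180) for the first. For the second it was 0.99 ± 0.12 (SE), and no p is given, since this probe set was tested only because Pr-HP passed the filter.

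**Figure D2:**
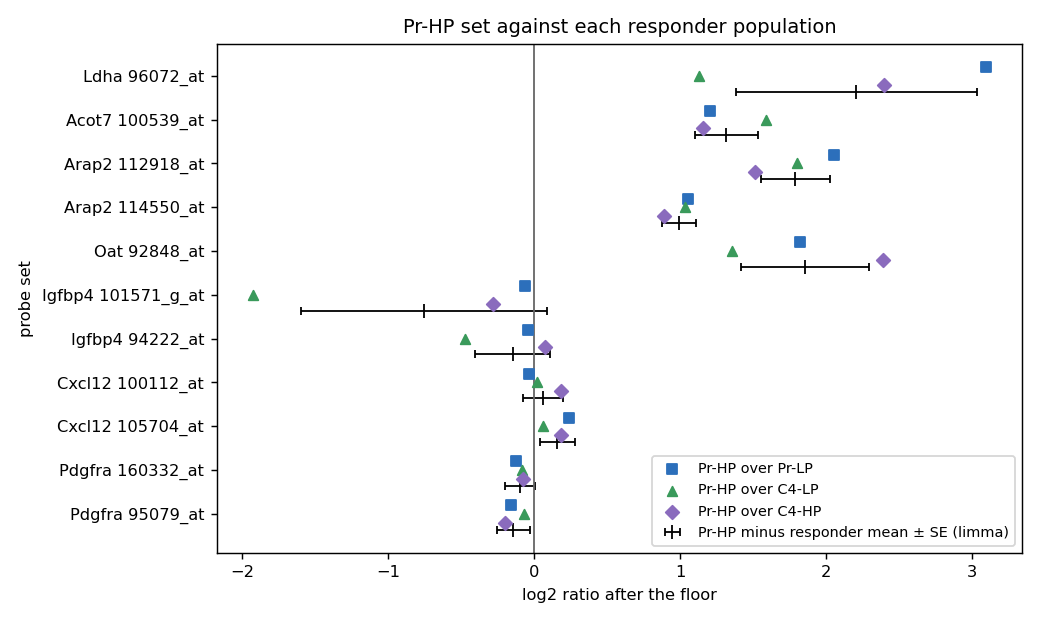
Log2 ratio of Pr-HP to each responder population after the floor (points) for the 11 tested probe sets, with the limma difference between Pr-HP and the responder mean ± SE below them (black). All 3 ratios exceed 0 for Ldha, Acot7, both Arap2 probe sets, Oat 92848_at and Cxcl12 105704_at, with the last between 1.04-fold and 1.18-fold and the Ldha ratios between 2.19-fold and 8.54-fold.

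Igfbp4, Cxcl12 and Pdgfra encode signalling proteins, and none of their probe sets was past 2-fold higher in Pr-HP. Igfbp4 encodes a secreted protein that binds insulin-like growth factors and holds them from their receptor. One of its probe sets (101571_g_at) measured 188 units in Pr-HP, against 197 in Pr-LP, 715 in C4-LP and 230 in C4-HP, so that C4-LP stood alone and the other 3 populations lay within 1.22-fold of each other. Pr-HP was at 0.495 of the responder mean. The log2 difference of Pr-HP from the responders was -0.76 ± 0.84 (SE; limma, adjusted p = 0.827), and without C4-LP it was -0.17. A second Igfbp4 probe set (94222_at) gave 345 units in Pr-HP, against 355 in Pr-LP, 480 in C4-LP and 328 in C4-HP, with C4-LP again highest but only 1.35-fold above Pr-LP, and the third (101570_at, 48.9 to 50.5 units) was under the floor throughout.

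Cxcl12 encodes the chemokine ligand of the receptors CXCR4 and ACKR3. Its 2 tested probe sets stayed within 1.18-fold over the 4 populations. The probe set 100112_at read 184.5 units in Pr-HP, against 189 in Pr-LP, 182 in C4-LP and 162 in C4-HP, and 105704_at read 212 units in Pr-HP, against 180 in Pr-LP, 203 in C4-LP and 187 in C4-HP. Control ratios differed between chips by a median of 1.11-fold and at most 1.34-fold. That measure is of other genes and between chips, so it sets no limit for a range over populations on 1 chip. The limma adjusted p was 0.929 for 100112_at and 0.737 for 105704_at, and the other 2 Cxcl12 probe sets (20.9 to 58.2 units) were under the floor. Pdgfra encodes the α receptor for platelet-derived growth factor. It read 305 units in Pr-HP, against 333 in Pr-LP, 324 in C4-LP and 322 in C4-HP on 160332_at, and 139 units in Pr-HP, against 155 in Pr-LP, 146 in C4-LP and 160 in C4-HP on 95079_at. Both lay within 1.15-fold, with Pr-HP lowest in each (limma, adjusted p = 0.814 and 0.751), and the third probe set (14.5 to 17.6 units) was under the floor.

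Against all 23340 tested probe sets, limma called 0 of the 11 at an adjusted p under 0.05, where it called 15 higher in Pr-HP (0.0643%) and 4 lower. The other 6 of the 17 were not tested. Of the 10 left without Arap2 114550_at, which passed the filter through Pr-HP alone, 3 were higher in Pr-HP at an unadjusted p under 0.05 (Acot7, Arap2 112918_at and Oat 92848_at), where 5.49% of all tested probe sets were. Pr-HP exceeded every responder for 5 of these 10, where it did so for 29.5% of all. By size, 4 of the 11, from 4 genes, were more than 2-fold above the responder mean with at least 100 units in Pr-HP (Ldha, Acot7, Arap2 112918_at and Oat 92848_at), against 1.14% of all, and 3 of them (without Acot7) were more than 3-fold above it, against 0.368% of all. Each probe set of the 11 counts once in these shares, and those of 1 gene are not independent. The median log2 difference was 0.16 over the 11 and -0.0016 over all tested probe sets. The 11 here include Arap2 114550_at (0.99), which was tested only through its Pr-HP value and raises their median. The fit rests on 2 residual degrees of freedom, and the 3 responders are different populations rather than replicates, so that the spread it uses holds differences such as that of Ldha between C4-LP and Pr-LP.

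**Figure D3:**
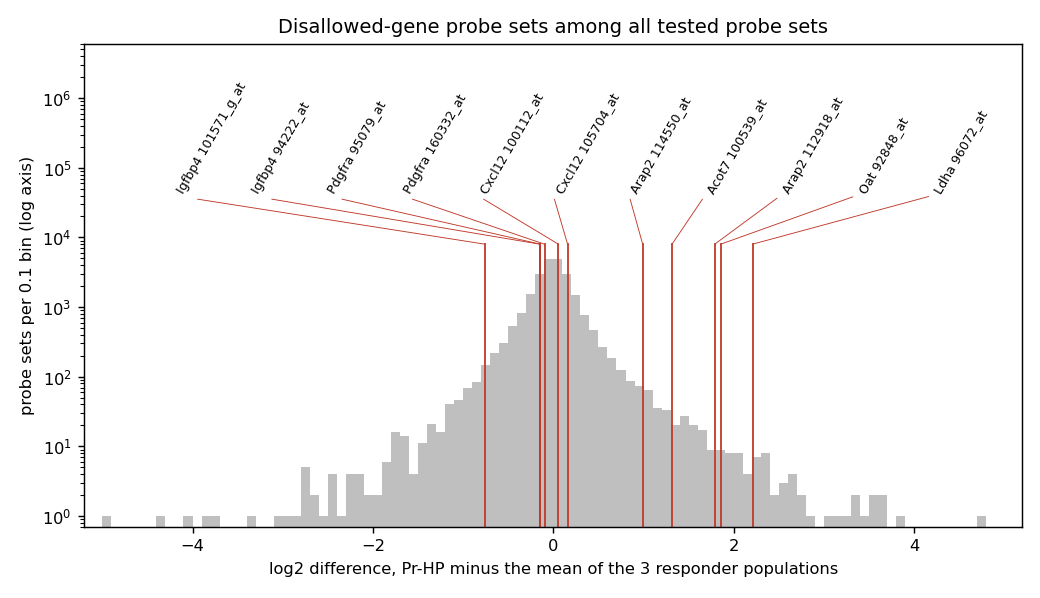
Number of tested probe sets (log axis) by log2 difference between Pr-HP and the mean of the 3 responder populations, in bins of 0.1, for all 23340 probe sets (grey), with the 11 disallowed-gene probe sets as red lines. Ldha (2.21), Oat 92848_at (1.85) and Arap2 112918_at (1.79) stand in the upper tail, and the Pdgfra and Cxcl12 probe sets stand in the centre.

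Over the 4 populations, the highest value was more than 3-fold above the lowest for 4 of the 11 probe sets (Ldha 8.54-fold, Oat 92848_at 5.24-fold, Arap2 112918_at 4.14-fold and Igfbp4 101571_g_at 3.80-fold), against 2.06% of all tested probe sets. Acot7 lay just under this mark, at 2.999-fold. For 5 of the 11 the range stayed under 1.5-fold.

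For Ldha and Oat, the high-passage cells lay above the low-passage cells in the parental population and below them in clone 4. In the parental cells, Pr-HP exceeded Pr-LP by more than 3-fold for 3 of the 11 probe sets, Ldha (8.54-fold), Arap2 112918_at (4.14-fold) and Oat 92848_at (3.54-fold), against 0.617% of all. In clone 4, the high-passage value of 2 of these was below the low-passage value, with C4-HP at 0.415 of C4-LP for Ldha and at 0.488 of C4-LP for Oat 92848_at, and Igfbp4 101571_g_at at 0.321. These 3 of the 11 were more than 2-fold lower in C4-HP than in C4-LP, against 0.891% of all, and Igfbp4 alone was more than 3-fold lower, against 0.24%. Arap2 and Acot7 differed little with passage in clone 4, by 1.22-fold, 1.10-fold and 1.34-fold upward for 112918_at, 114550_at and Acot7. With the floor at the 40th percentile, the C4-HP value of Oat was replaced by the floor and its ratio to C4-LP became 0.913.

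Between the 2 high-passage populations, C4-HP stood at 0.190 of Pr-HP for Ldha and at 0.191 for Oat 92848_at, and 2 of the 11 were more than 3-fold lower in C4-HP, against 0.514% of all. Between the 2 low-passage populations, 2 of the 11 were more than 3-fold higher in C4-LP than in Pr-LP, Ldha (3.90-fold) and Igfbp4 101571_g_at (3.63-fold), against 0.48% of all. The highest Ldha value among the responders was thus that of C4-LP, a population that keeps GSIS. These comparisons share arrays with each other and with the comparison of Pr-HP with the responders, each ratio is of 2 single arrays, and none was tested.

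**Figure D4:**
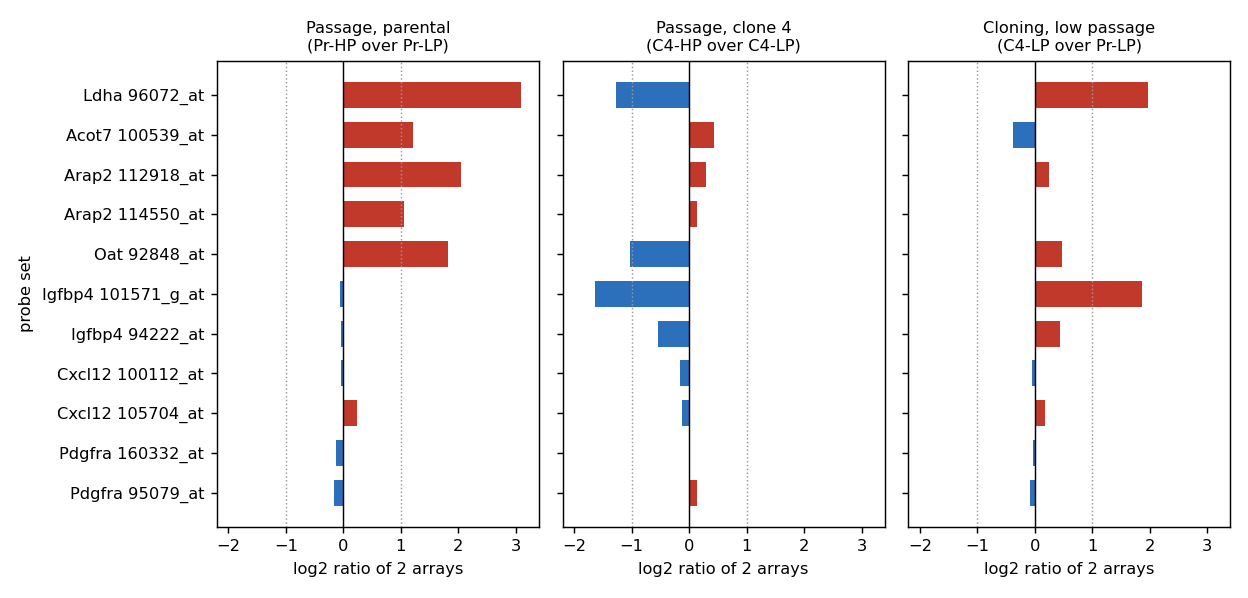
Log2 ratio of 2 arrays for the 11 tested probe sets, for passage in parental cells (Pr-HP over Pr-LP, left), passage in clone 4 (C4-HP over C4-LP, middle) and cloning at low passage (C4-LP over Pr-LP, right), with red bars above 0, blue bars below 0 and dotted lines at 2-fold. Ldha was 8.54-fold higher in Pr-HP than in Pr-LP but at 0.415 in C4-HP relative to C4-LP, and Oat 92848_at behaved likewise, at 3.54-fold and 0.488.

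The genes around each disallowed gene were looked at by lists, over all probe sets of each list. Of 19 further genes described as low in β cells, 16 probe sets were tested, and 1 was past 3-fold higher in Pr-HP and called by limma. It belongs to Maf, a transcription factor of islet α cells, and read 286 units in Pr-HP (115390_at), against 25.1 in Pr-LP, 24.0 in C4-LP and 25.5 in C4-HP, all 3 under the floor. Because the responders were raised to the floor, Pr-HP was at least 4.88-fold above them, their spread was 0 by construction and the probe set was tested through Pr-HP alone, so that no p is given. A second Maf probe set on chip C (130990_at) read 68.4 units in Pr-HP, against 21.9 in Pr-LP, 18.5 in C4-LP and 19.4 in C4-HP, with the responders again under the floor, and 2 further Maf probe sets were not tested. Hexokinase 1, an enzyme of glucose phosphorylation that β cells usually replace by glucokinase, read 1452 units in Pr-HP (99335_at), against 1464 in Pr-LP, 1554 in C4-LP and 1546 in C4-HP.

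In the lactate, pyruvate and NADH shuttle list, 39 probe sets were tested, 0 were called by limma, 5 had an unadjusted p under 0.05, and 0 were past 2-fold higher or lower. Ldhb, the other main lactate dehydrogenase subunit, read 187 units in Pr-HP, against 199 in Pr-LP, 165 in C4-LP and 164 in C4-HP. Slc16a3, the monocarboxylate transporter that carries lactate out of glycolytic cells, read 432 units in Pr-HP, against 308 in Pr-LP, 448 in C4-LP and 367 in C4-HP. Slc16a7, the high-affinity pyruvate transporter, read 69.1 units in Pr-HP (165314_f_at), against 68.8 to 80.1 in the responders, close to the floor of chip B. Bsg, a chaperone of monocarboxylate transporters, read 3091 units in Pr-HP, against 3737 in Pr-LP, 4388 in C4-LP and 3838 in C4-HP. Emb, also in this list, went the other way, with 2619 units in Pr-HP (101560_at), against 1461 in Pr-LP, 1626 in C4-LP and 1866 in C4-HP. Its 170756_at read 187 units in Pr-HP, against 146 to 151 in the responders, and its 162068_r_at was under the floor. The value nearest to 2-fold was that of Mpc1, a subunit of the mitochondrial pyruvate carrier, which read 646 units in Pr-HP (164429_f_at), against 338 in Pr-LP, 318 in C4-LP and 332 in C4-HP (limma, adjusted p = 0.126). A second Mpc1 probe set (96028_at) read 130 units in Pr-HP, against 125 in Pr-LP, 118 in C4-LP and 114 in C4-HP, and was not tested.

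Ldha is also a target of the hypoxia-inducible factors, and of the HIF list 39 probe sets were tested, with 0 called and 6 at an unadjusted p under 0.05. Of the 3 tested probe sets of Pfkp, a phosphofructokinase, 2 were past 2-fold higher, one with 468 units in Pr-HP (97833_at), against 157 in Pr-LP, 219 in C4-LP and 192 in C4-HP (limma, adjusted p = 0.258), while the third (164250_at) read 142 units in Pr-HP, against 128 in Pr-LP, 129 in C4-LP and 138 in C4-HP. Both of Ndrg1, a stress-responsive gene, were past 2-fold lower, one with 643 units in Pr-HP (160464_s_at), against 2001 in Pr-LP, 999 in C4-LP and 1453 in C4-HP (limma, adjusted p = 0.524). P4ha1 and P4ha2, subunits of the procollagen prolyl 4-hydroxylase, each had 1 probe set with a range past 3-fold, highest in C4-LP. P4ha2 (98983_at) read 487 units in Pr-HP, against 366 in Pr-LP, 1382 in C4-LP and 571 in C4-HP. P4ha1 (104139_at) read 214 units in Pr-HP, against 132 in Pr-LP, 495 in C4-LP and 200 in C4-HP. In P4ha1 and P4ha2, as in Ldha, Pr-LP was lowest. It was also lowest for Slc2a1, Aldoa, Tpi1, Pgk1, Pgam1 and Bnip3, each by its probe set of highest mean. Of these, Pgk1 had the order of Ldha, with 3159 units in Pr-HP (93346_at), against 1739 in Pr-LP, 2756 in C4-LP and 2321 in C4-HP. Pr-HP was 1.13-fold (Pgam1) to 1.39-fold (Pgk1) above the responder mean for these genes. Ndrg1, Vegfa and Ddit4 had Pr-LP highest. The median log2 difference of the list was 0.01.

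Around Oat, 23 probe sets of ornithine and glutamate genes were tested, with 0 called and 1 at an unadjusted p under 0.05. Odc1, the rate-limiting enzyme of polyamine synthesis from ornithine, read 505 units in Pr-HP, against 380 in Pr-LP, 702 in C4-LP and 721 in C4-HP. Aldh18a1, which makes the precursor of proline and ornithine, read 130 units in Pr-HP (95738_at), against 122 in Pr-LP, 292 in C4-LP and 194 in C4-HP. Glul, glutamine synthetase, was the 1 probe set past 2-fold lower, with 58.9 units in Pr-HP (94852_at), under the floor, against 215 in Pr-LP, 113 in C4-LP and 211 in C4-HP (limma, adjusted p = 0.482). The other 3 Glul probe sets were at 1.01, 0.717 and 0.603 of the responder mean (161826_r_at, 117284_at and 117285_g_at), and the first of these read 1662 units in Pr-HP, against 1827 in Pr-LP, 1565 in C4-LP and 1545 in C4-HP. Spermidine synthase (Srm, 92540_f_at) had a range of 3.13-fold, with 743 units in Pr-HP, against 699 in Pr-LP, 2185 in C4-LP and 1238 in C4-HP, whereas its 165387_i_at and 168844_at ranged by 1.25-fold and 1.08-fold.

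Around Acot7, 19 probe sets of acyl-CoA genes were tested, with 0 called, 3 at an unadjusted p under 0.05 and 1 past 2-fold higher, that of the acyl-CoA synthetase Acsl5 (1070 units in Pr-HP, against 461 in Pr-LP, 625 in C4-LP and 479 in C4-HP). Cpt1a, which brings fatty acids into the mitochondria, read 1004 units in Pr-HP, against 776 in Pr-LP, 433 in C4-LP and 323 in C4-HP, so that both parental populations lay above both clone 4 populations. Scd1, a fatty acid desaturase, read 620 units in Pr-HP (94057_g_at), against 1329 in Pr-LP, 385 in C4-LP and 513 in C4-HP, and its 94056_at and 94058_r_at ranged by 2.77-fold and 1.32-fold. Around Arap2, 18 probe sets of ARAP and small GTPase genes were tested, with 0 called and 0 at an unadjusted p under 0.05. Its relative Arap1 read 634 units in Pr-HP (168279_r_at), against 544 in Pr-LP, 592 in C4-LP and 556 in C4-HP, and Arap3 read 98.4 units in Pr-HP (160947_at), against 99.1 in Pr-LP, 81.2 in C4-LP and 76.8 in C4-HP.

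Around Igfbp4, 18 probe sets of insulin-like growth factor (IGF) genes were tested, with 0 called and 5 at an unadjusted p under 0.05. All 4 tested probe sets of Igf1r, the IGF1 receptor, were 1.94-fold to 3.31-fold above the responder mean in Pr-HP. The probe set with the highest values read 1468 units in Pr-HP (102224_at), against 625 in Pr-LP, 959 in C4-LP and 689 in C4-HP, and that with the largest fold read 386 units in Pr-HP (116112_at), against 90.1 in Pr-LP, 166 in C4-LP and 92.7 in C4-HP (limma, adjusted p = 0.356). Igf2 read 11886 units in Pr-HP (98623_g_at), against 13785 in Pr-LP, 11393 in C4-LP and 14064 in C4-HP. Of the CXCL12 and PDGF partners, 5 probe sets were tested, with 0 called and 0 at an unadjusted p under 0.05. The CXCL12 receptors Cxcr4 and Ackr3 and the other PDGF receptor, Pdgfrb, were under the floor in all 4 populations, while the ligand Pdgfa read 460 units in Pr-HP (94932_at), against 741 in Pr-LP, 463 in C4-LP and 559 in C4-HP.

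Several disallowed genes are usual in other cell types, so markers of these were read beside them. Of 13 fibroblast and mesenchymal markers 12 had a probe set, their summed intensity was 3683 units in Pr-HP, against 3839 in Pr-LP, 3854 in C4-LP and 3667 in C4-HP, and 0 of the 7 tested probe sets were called. The 7 endothelial markers summed to 1374 units in Pr-HP, against 1483 in Pr-LP, 1379 in C4-LP and 1478 in C4-HP. Cd14, a macrophage marker, read 643 units in Pr-HP, against 692 in Pr-LP, 634 in C4-LP and 650 in C4-HP. With it, the 7 macrophage markers summed to 2760 units in Pr-HP, against 1224 in Pr-LP, 1164 in C4-LP and 1180 in C4-HP, an excess that lay in Cd68. Of these, Cd68, a lysosomal protein, was called, with 1785 units in Pr-HP, against 177 in Pr-LP, 210 in C4-LP and 196 in C4-HP (limma, adjusted p = 0.0446), a second Cd68 probe set (162173_i_at) was under the floor in all 4 populations, and so were Ptprc and Lyz2. Ctrb1, an acinar marker, read 567 units in Pr-HP, against 785 in Pr-LP, 694 in C4-LP and 685 in C4-HP. Of 9 acinar and duct markers 8 had a probe set. These summed to 4060 units in Pr-HP, against 2775 in Pr-LP, 2497 in C4-LP and 2534 in C4-HP, an excess that lay in Car2. Of these, Car2, a carbonic anhydrase, was called, with 1831 units in Pr-HP, against 139 in Pr-LP, 131 in C4-LP and 162 in C4-HP (limma, adjusted p = 0.0446). Both calls ended under 6 of the 9 alternatives (a floor at the 40th percentile, no filter, the block on parental or clone 4 cells, and leaving out any 1 responder), with adjusted p values over the alternatives of 0.0352 to 0.416 for Cd68 and 0.0352 to 0.379 for Car2. Krt19, a duct keratin, stood out in Pr-LP, with 57.6 units in Pr-HP (92550_at), against 223 in Pr-LP, 57.6 in C4-LP and 56.4 in C4-HP, and so did Ppy, a hormone of other islet cells, with 128 units in Pr-HP (94148_at), against 361 in Pr-LP, 118 in C4-LP and 142 in C4-HP. Gcg, the glucagon gene of α cells, followed the order of Ldha, with 10552 units in Pr-HP (165472_i_at), against 502 in Pr-LP, 3175 in C4-LP and 2915 in C4-HP (limma, adjusted p = 0.562). The other Gcg probe set (94633_at) had the same order, with 2244 units in Pr-HP, against 50.6 in Pr-LP (under the floor), 346 in C4-LP and 275 in C4-HP. The part of any such cells in the values of the disallowed genes was not tested.

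The nearest profiles on the same chip were found for the 4 probe sets past 3-fold over the populations, by the root mean square difference of the centred log2 values over 4 populations (lower is more alike). For Ldha they were Noct (0.256), Spock1 (0.302) and Plpp1 (0.397) among 8221 probe sets. Noct, which encodes the circadian protein nocturnin, read 1944 units in Pr-HP, against 298 in Pr-LP, 717 in C4-LP and 419 in C4-HP. For Oat they were Osbpl1a (0.126), Plat (0.128) and C1qtnf12 (0.130), and Plat, tissue plasminogen activator, read 1008 units in Pr-HP, against 260 in Pr-LP, 390 in C4-LP and 225 in C4-HP. For Arap2 112918_at they were Vps8 (0.124), Sox11 (0.151) and Stom (0.161) among 7762 probe sets of chip B. For Igfbp4 101571_g_at they were Bag3 (0.115), Copz2 (0.117) and Angpt2 (0.153), and Bag3, a co-chaperone, read 288 units in Pr-HP, against 268 in Pr-LP, 874 in C4-LP and 321 in C4-HP. With 4 points in a profile, many probe sets lie close by, and likeness here is a description.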

How the data were processed

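Biotin-labelled RNA of 4 MIN6 populations was measured on 3 Affymetrix mouse chips (MG-U74v2 A, B and C), with 1 array for each population and chip. The authors deposited 1 intensity for each probe set and array on a linear scale. They name the GeneChip 5.1 software. The summarisation and normalization were not given in the sources used here, and no further scaling was applied. Probe sets were named from the platform annotation (29131 with 1 symbol, 724 with several, 6846 with none), and the 198 control probe sets were left out. Promoters came from RefSeq.

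Folds are ratios on the linear scale after a floor at a chip's 20th percentile, and a fold past a threshold needed 100 units on the higher side. Pr-HP was compared with the 3 responder populations in limma 3.58.1 under R 4.3.3 (lmFit, eBayes) within each chip, on log2 values, with Benjamini-Hochberg adjustment over the 3 chips together and a threshold of 0.05. A log2 difference is Pr-HP minus the responder mean, except with the block on parental against clone 4 cells, where it is Pr-HP minus Pr-LP. A probe set was tested if at least 1 array exceeded its chip's 40th percentile. The fit has 2 residual and 1.93 to 2.47 prior degrees of freedom and was tested on simulated data. The p-values measure only the spread between these populations. The number of arrays limits the precision. The members, the lists and the tests were chosen with earlier results of these data known. Named genes are the members, their direct partners, and list genes that limma called or that were past 3-fold over the populations. Genes named outside this rule (Hk1, Mpc1, Emb, Acsl5, Ins2, Kcnj11, Cd14, Ptprc, Lyz2 and Ctrb1) were chosen after their values were seen. So were the β-cell markers Iapp, Pdx1, Nkx2-2, Abcc8, Chga and G6pc2. The same holds for Pgk1, Aldoa, Tpi1, Pgam1, Slc2a1, Bnip3, Vegfa and Ddit4 of the HIF list. Alternatives changed the floor, the filter and the scaling, blocked on parental against clone 4 cells, and left out each responder.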

Additional observations from a re-analysis of the deposited data

Results flagged for a closer look

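For 2 probe sets the ratio of high to low passage ran in opposite directions in the parental cells and in clone 4, each by more than 2-fold. For Ldha the log2 ratio was 3.09 for Pr-HP over Pr-LP and -1.27 for C4-HP over C4-LP, which differ by 4.36. For Oat (92848_at) the log2 ratio was 1.82 for Pr-HP over Pr-LP and -1.04 for C4-HP over C4-LP, which differ by 2.86. The C4-HP value of Oat was 81.6 units, close to the floor of 67.3. With the floor at the 40th percentile its ratio to C4-LP was 0.913, no longer past 2-fold. Each ratio is of 2 single arrays, and the difference was not tested.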

How the results depend on the processing

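The number of probe sets called by limma over all chips was 19. It was 32 with the floor at 1.0 unit, 0 with the floor at the 40th percentile (2511 at an unadjusted p under 0.05), 108 with no filter on low values, 26 with quantile normalization, 23 with median scaling and 0 with a block for parental against clone 4 cells (2606 at an unadjusted p under 0.05). Leaving out 1 responder gave 0 to 3 calls (0 without Pr-LP, 3 without C4-LP and 0 without C4-HP, with 2446, 2332 and 1696 at an unadjusted p under 0.05). The disallowed genes had 0 calls under these 10 settings, and of the 10 probe sets left without Arap2 114550_at, 2 to 4 had an unadjusted p under 0.05 and none an adjusted p below 0.1275. The call of Maf ended under 5 of the 9 alternatives. Of 99 log2 differences under the alternatives, 96 kept their direction and side of the threshold. This count includes the floor at 1.0 unit and the fit without the filter. Under these the size of a difference could not change, because the 11 probe sets were above the floor on every array. The 3 log2 differences that turned were all near 0, Igfbp4 94222_at without C4-LP (0.016, with -0.26 to 0.016 over the responders left out) and Cxcl12 100112_at with the block (-0.035) and without C4-HP (-0.0077, with -0.0077 to 0.10 over the responders left out). The log2 difference ranged over the settings by 1.76 to 3.09 for Ldha, 1.44 to 2.11 for Oat 92848_at, 1.18 to 1.39 for Acot7, and 1.66 to 2.05 and 0.86 to 1.05 for the Arap2 probe sets. The upper ends for Ldha and both Arap2 probe sets came with the block, where the difference is that of Pr-HP from Pr-LP alone. So did the -0.035 of Cxcl12 100112_at. The count past 3-fold over the responder mean, 3, became 2 with the floor at the 40th percentile and without C4-HP, Oat being lost each time (2.71-fold and 2.97-fold). With that floor the Oat ratio of C4-HP to C4-LP was 0.913 and of C4-HP to Pr-HP 0.358. The count with a range past 3-fold, 4, became 3 with that floor and 5 with median scaling. The fold and range alternatives were chosen after seeing the data. Values under the floor have no order.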
